A study of Mus musculus with 6 samples.

Results

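The genes described here are the RNA sensors of the innate immune system with the adaptor, the kinases and the editing enzyme around them: 10 genes chosen by name, all 10 of which were found among the 54532 genes of the count table. They are the RIG-I-like receptor genes Ddx58, Ifih1 and Dhx58, the genes Tlr3, Eif2ak2, Zbp1 and Adar for other proteins that bind or edit double-stranded RNA, the adaptor gene Mavs, and the kinase genes Tbk1 and Ikbke. Poly-A RNA was sequenced in 2 groups of 3 libraries from MB49, a line of mouse bladder cancer cells of male origin. CRISPR Y-Scr is the control made with a guide RNA that targets nothing, and CRISPR Y-KO is labelled as a knockout of Y, and its guide was not known for this work. In both groups, cells were sorted after transduction on a red fluorescent protein and grown from single cells, so a group may rest on few clones. All 6 carry the same batch label. The labels do not say whether replicates were separate clones or cultures. What the p-values measure is thus the spread among these libraries alone, which may be technical.

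RIG-I, the product of Ddx58, and MDA5, the product of Ifih1, are helicases that bind double-stranded RNA in the cytosol and signal through MAVS on the outer membrane of mitochondria. MAVS recruits the kinases TBK1 and IKKε, which phosphorylate the transcription factors IRF3 and IRF7 and so switch on type I interferon genes. Many of the sensor genes are themselves induced by interferon, which forms a positive loop. ADAR1 edits adenosines in double-stranded RNA and limits the sensing of the cell's own RNA.

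The libraries held 15698510 to 24633158 counts. As a check of the labels, Ddx3y, Uty, Kdm5d and Eif2s3y together held 6747 to 8860 counts in each Y-Scr library and 0 in each Y-KO library. Keratin genes of simple epithelia were abundant (Krt8 at 2185.9 CPM in Y-Scr and 2813.2 CPM in Y-KO), while the epithelial genes Epcam and Cdh1 and the urothelial gene Upk3a had 0 counts. The urothelial transcription factor gene Gata3 was lower in Y-KO (7.79 ± 0.333 to 2.80 ± 0.767 CPM). Of 13 urothelial and epithelial markers 5 were tested, and only Gata3 fell and only Krt8 rose at an adjusted p under 0.05 (edgeR). Foxa1, also a urothelial transcription factor gene, stood higher in Y-KO (9.38 ± 0.965 to 12.0 ± 1.19 CPM) but did not pass (adjusted p = 0.0504, edgeR). Krt14 and Krt18 did not pass either. Of 16 leukocyte markers, 8 had 0 counts, among them Ptprc, Itgam, Cd3e, Cd8a and Ncr1. The list's summed level, 108.0 to 116.0 CPM in Y-Scr and 95.6 to 101.0 CPM in Y-KO, came mostly from Cd68. Endothelial markers summed to 0.544 to 0.751 CPM in Y-Scr and 0.566 to 0.858 CPM in Y-KO, with Emcn at 0. Fibroblast and pericyte markers summed to 10.6 to 11.8 CPM in Y-Scr and 16.5 to 18.4 CPM in Y-KO, with Pdgfrb at 0 and Pdgfra the most abundant. In RNA from whole cultures, fewer cells that express a gene and less RNA per cell cannot be told apart.

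Most of the sensor genes were lower in Y-KO, the adaptor gene was higher, and the 2 kinase genes parted. Levels are counts scaled to library size (CPM, with TMM-scaled sizes), and changes are log2 fold changes, Y-KO minus Y-Scr, with the standard error (SE) of edgeR's quasi-likelihood fit over all 12907 tested genes. Of the 9 genes tested, 7 fell and 1 rose at an adjusted p under 0.05, against 43.6% of all tested genes called in either direction, 23.0% lower and 20.7% higher. Dhx58 and Zbp1, both among the 7, passed the low-count filter through their Y-Scr reads alone. They could be called lower but not higher, which limits this count and the median below. The median change of the 9 was -0.89, also with Zbp1 at its bound, against -0.01 over all tested genes. The 3 Y-Scr and 3 Y-KO values did not overlap for 9 of the 10 genes, 8 of them lower and 1 higher, as for 52.9% of all tested genes (27.5% lower and 25.4% higher). The tenth gene, Ifih1, had too few counts for the test.

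**Figure D1:**
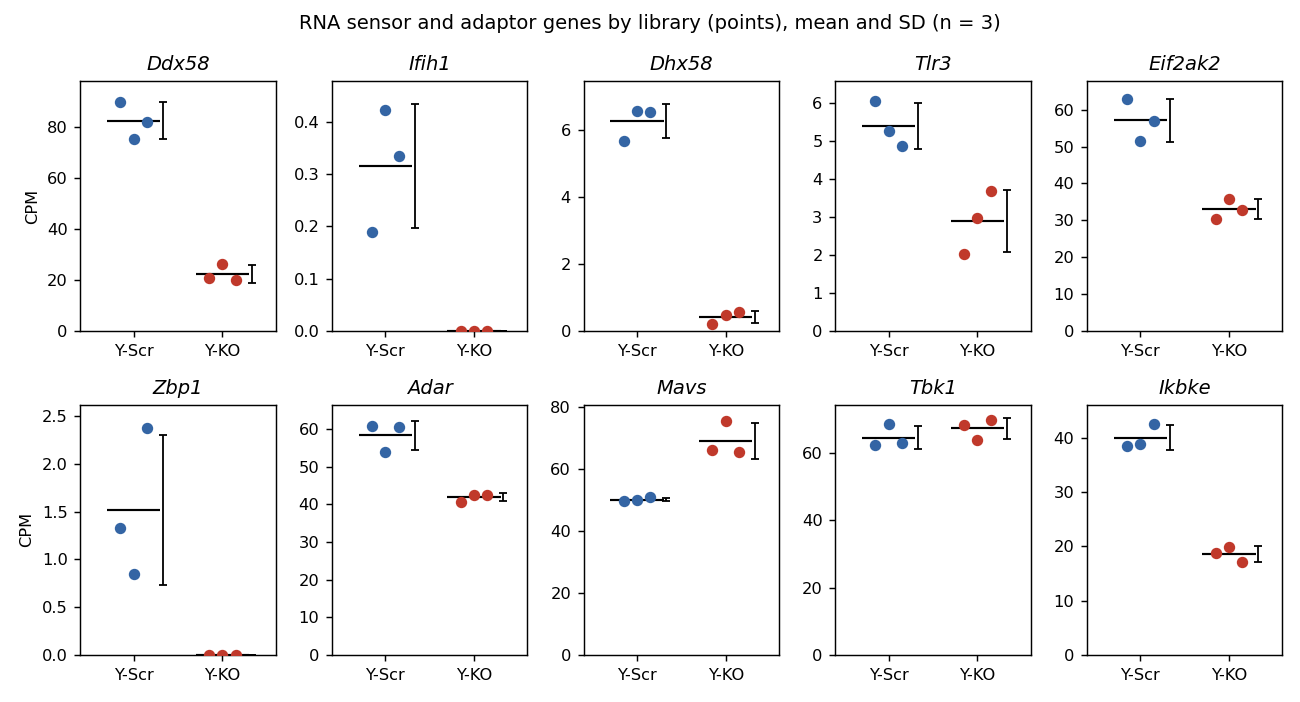
Level in CPM (vertical axis, from 0, with a scale of its own in each panel) of the 10 genes in the 3 Y-Scr (blue) and 3 Y-KO (red) libraries, with the mean as a line and the SD as a bar. Tbk1 is the panel where the groups overlap, Mavs the one where Y-KO is higher, and in the other 8 panels every Y-KO point lies below every Y-Scr point.

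Among the RIG-I-like receptors, RNA for RIG-I was lower by a factor of 3.67 and RNA for LGP2 was nearly lost. Ddx58 (ENSMUSG00000040296, chromosome 4, 40203773 to 40239828, GRCm38) stood at 89.9, 75.3 and 82.2 CPM in Y-Scr and at 21.0, 26.4 and 20 CPM in Y-KO. The highest Y-KO library was thus far below the lowest Y-Scr library. Ddx58 fell by 1.88 ± 0.10 (SE) on the log2 scale, with an adjusted p of 3.5e-11 by edgeR's quasi-likelihood test. Dhx58 (ENSMUSG00000017830, chromosome 11, 100694884 to 100704271) encodes LGP2, which lacks the signalling domains of RIG-I and MDA5 and modulates both. Its level was 5.69, 6.59 and 6.55 CPM in Y-Scr and 0.215, 0.497 and 0.566 CPM in Y-KO, where the libraries held 4, 8 and 10 reads. Dhx58 fell by 3.88 ± 0.32 (adjusted p = 1.1e-08, edgeR), the largest fall among tested members with reads in both groups. The gene passed the low-count filter through its Y-Scr reads alone, and so could be called lower but not higher. An antisense gene, Dhx58os, overlaps it and held 20 counts over the control libraries and 13 over the knockout libraries. The library kit keeps the strand of a transcript, but whether the counting used it is not stated, so reads of overlapping genes on opposite strands may not be told apart.

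RNA for MDA5 was close to undetected in these cells. Ifih1 (ENSMUSG00000026896, chromosome 2, 62595798 to 62646255) had 3, 7 and 8 reads in the Y-Scr libraries, a mean of 0.315 ± 0.118 CPM (SD, n = 3), and 0 reads in each Y-KO library. The ratio of the group totals is at least 5.58-fold lower in Y-KO, taking 3 counts over the group as the floor for a count of 0. The small Y-Scr total is taken as exact there. Without single libraries that bound lay between 3.6 and 6.47, and it stood at 3.6 without Y-KO 1 and 3.7 without Y-KO 3. The exact two-sided permutation test over the 6 libraries gave p = 0.10, the smallest that 3 against 3 allows. In edgeR with no low-count filter the adjusted p was 0.0106, and DESeq2 gave an unadjusted p of 0.00542 and no adjusted value.

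Per gene length, the combined RNA of the 3 receptors was 14.5, 12.8 and 13.7 CPM per kb in Y-Scr and 3.05, 3.90 and 3.01 CPM per kb in Y-KO. The Y-KO sum was therefore 0.243 of the Y-Scr sum, with no overlap between libraries. Ddx58 made up 85.6 ± 2.07% (SD, n = 3) of it in Y-Scr and 96.1 ± 1.79% in Y-KO, and Dhx58 14.1 ± 1.95% and 3.93 ± 1.79%. Both shares separated the groups in all 6 libraries. The exact two-sided permutation p was 0.10 for each of the 6 such sums, shares and ratios computed here, also after Benjamini-Hochberg adjustment, which is the smallest value possible.

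The sensors outside this family fell by smaller steps, apart from Zbp1. Tlr3 (ENSMUSG00000031639, chromosome 8, 45395665 to 45411080), whose product senses double-stranded RNA in endosomes, stood at 6.07, 5.26 and 4.88 CPM in Y-Scr and at 2.04, 2.98 and 3.68 CPM in Y-KO. The Y-KO libraries spread widely around their mean, from 38 to 65 reads, yet lay below the Y-Scr libraries. Tlr3 fell by 0.89 ± 0.24 (adjusted p = 0.00469, edgeR), and over all 14 alternative settings its change ranged from -1.11 to -0.68.

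Eif2ak2 (ENSMUSG00000024079, chromosome 17, 78852564 to 78882573) encodes PKR, a kinase that halts translation by phosphorylating eIF2alpha when it binds double-stranded RNA. Its level was 62.9, 51.4 and 56.9 CPM in Y-Scr and 30.4, 35.9 and 32.8 CPM in Y-KO. All 3 Y-KO libraries lay below the control range. Eif2ak2 fell by 0.79 ± 0.09 (adjusted p = 1.8e-06, edgeR). The antisense gene Gm26637 overlaps it and held 42 counts over the control libraries and 20 over the knockout libraries.

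Zbp1 (ENSMUSG00000027514, chromosome 2, 173206612 to 173218923) encodes a sensor of Z-form nucleic acids that can trigger necroptosis through RIPK3. It had 21, 14 and 57 reads in Y-Scr, or 1.33, 0.846 and 2.38 CPM, and 0 reads in each Y-KO library. Y-Scr 3 thus held more Zbp1 reads than the other 2 control libraries together. Against Y-Scr its level in Y-KO was lower, at least 28.5-fold, with a floor of 3 counts over the group (adjusted p = 1.9e-05, edgeR). Zbp1 passed the low-count filter through its Y-Scr reads alone, and so could be called lower but not higher. The bound was 18.9 without Y-Scr 3, 18.4 without Y-KO 1 and 18.9 without Y-KO 3, and the call held without each library, at adjusted p-values up to 0.00018.

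Adar (ENSMUSG00000027951, chromosome 3, 89715022 to 89753446) encodes ADAR1, which is made in a constitutive nuclear form and in a longer form from a promoter induced by interferon. Its level was 60.8, 54.0 and 60.5 CPM in Y-Scr and 40.7, 42.5 and 42.5 CPM in Y-KO. Every Y-KO library was lower, and the 3 differed little among themselves. Adar fell by 0.48 ± 0.08 (adjusted p = 0.00011, edgeR), the smallest fall among the 7. Counts per gene do not separate the 2 forms. The gene Chrnb2 overlaps it on the other strand and held 68 control and 79 knockout counts.

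The adaptor gene was the 1 member called higher. Mavs (ENSMUSG00000037523, chromosome 2, 131234063 to 131248025) stood at 49.7, 49.9 and 50.9 CPM in Y-Scr and at 66.2, 75.6 and 65.3 CPM in Y-KO. The controls lay within about 1 CPM of each other, and every Y-KO library was above them. Mavs rose by 0.46 ± 0.08 (adjusted p = 0.00012, edgeR), or 1.38-fold. As Ddx58 fell, the ratio of Mavs to Ddx58 RNA per length went from 1.29 ± 0.115 to 6.51 ± 0.435 (SD, n = 3), which is 5.05 times as high in Y-KO. The libraries ran from 1.17 to 1.39 in Y-Scr and from 6.03 to 6.88 in Y-KO.

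The kinase genes Tbk1 and Ikbke, whose products are close relatives with shared substrates, moved apart in these libraries. Ikbke (ENSMUSG00000042349, chromosome 1, 131254343 to 131279606) encodes IKKε, the inducible kinase of the pair. It stood at 38.4, 38.9 and 42.6 CPM in Y-Scr and at 18.8, 20 and 17.1 CPM in Y-KO, with a wide gap between the groups. Ikbke fell by 1.10 ± 0.10 (adjusted p = 2.7e-08, edgeR). The antisense gene Gm28913 overlaps it and held 30 counts over the control libraries and 15 over the knockout libraries. Gm28914, also antisense, held 1 and 2. Tbk1 (ENSMUSG00000020115, chromosome 10, 121546455 to 121586787), which most cells express constantly, stood at 62.3, 68.6 and 63.0 CPM in Y-Scr and at 68.3, 63.9 and 69.8 CPM in Y-KO. Its groups overlapped, and its change of 0.06 ± 0.08 had a 95% interval of -0.10 to 0.22 (adjusted p = 0.554, edgeR). After removal of length and GC trends within libraries, Tbk1 was called higher, at 0.23 ± 0.07 (adjusted p = 0.00867, edgeR). The ratio of Ikbke to Tbk1 RNA per length was 0.268, 0.245 and 0.293 in Y-Scr and 0.12, 0.135 and 0.106 in Y-KO. The Y-KO ratio was 0.448 of the control ratio, and the groups did not overlap.

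**Figure D2:**
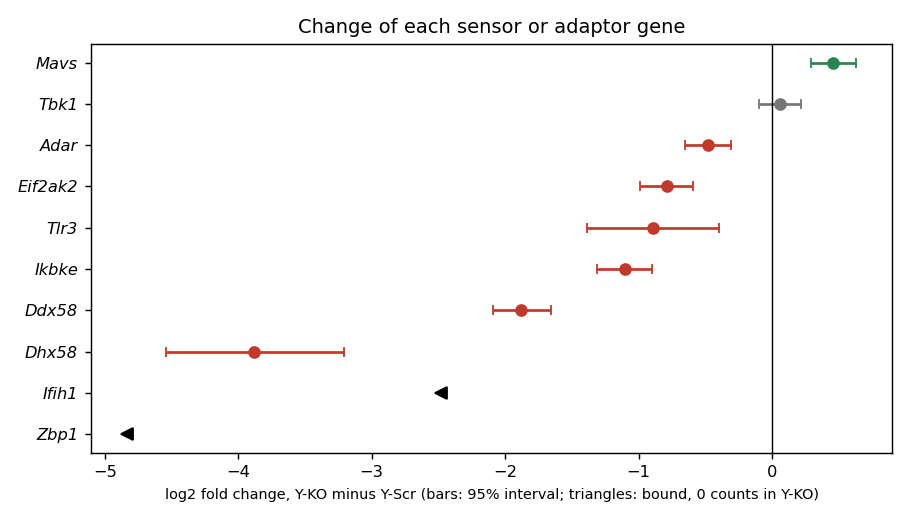
Log2 fold change of each gene (horizontal axis, Y-KO minus Y-Scr) from edgeR's quasi-likelihood fit, with 95% intervals as bars; red genes fell, the green gene rose and the grey gene did not pass the threshold. Black triangles mark Ifih1 and Zbp1 at the bound set by 0 counts in Y-KO, and changes run from 0.46 for Mavs to -3.88 for Dhx58 among genes with reads in both groups.

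The rank order of the genes by RNA per length also changed between the groups. In Y-Scr it ran from Tbk1 (16.5 ± 0.895 CPM per kb, SD, n = 3) and Mavs (15 ± 0.185) to Ddx58 (11.7 ± 1.03), Eif2ak2 (11.2 ± 1.12), Adar (7.19 ± 0.475) and Ikbke (4.43 ± 0.255). Dhx58 (1.92 ± 0.155), Tlr3 (1.04 ± 0.116), Zbp1 (0.430 ± 0.222) and Ifih1 (0.0386 ± 0.0144) followed. Only Ddx58 and Eif2ak2 overlapped with their neighbour in this order across libraries. In Y-KO the adaptor led, with Mavs at 20.6 ± 1.70 CPM per kb and Tbk1 at 17.2 ± 0.780. Eif2ak2 (6.46 ± 0.541) and Adar (5.17 ± 0.129) stood above Ddx58 (3.19 ± 0.488), which had moved from rank 3 to rank 5. Ikbke (2.07 ± 0.160), Tlr3 (0.557 ± 0.158) and Dhx58 (0.130 ± 0.0569) came next, and Tlr3 and Dhx58 had changed places. Among all 12907 tested genes, the level of Ddx58 per length went from the 64.7th percentile in Y-Scr to the 33.6th in Y-KO, while Mavs went from the 70.9th to the 78.6th.

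**Figure D3:**
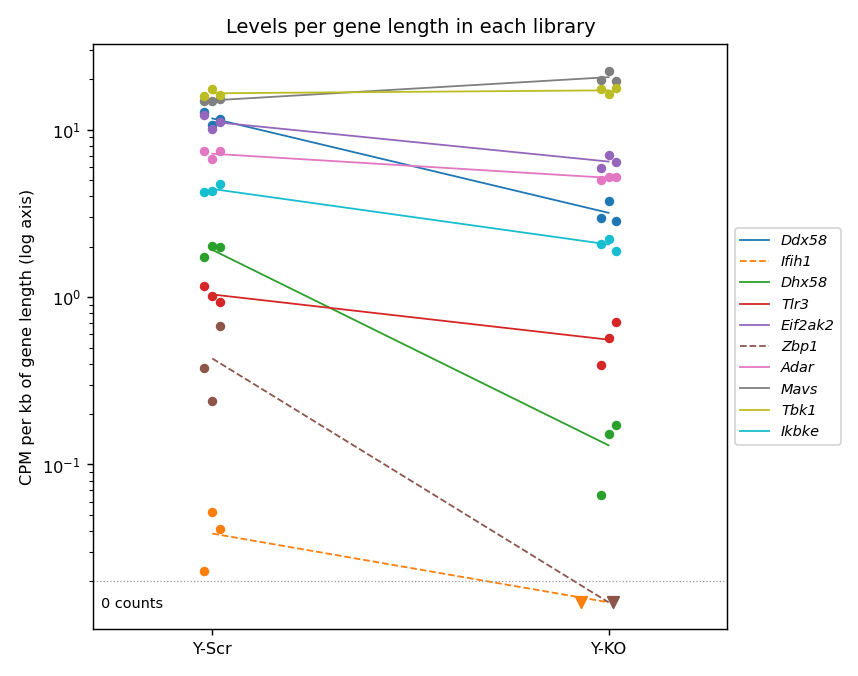
RNA level per kb of gene length (vertical log axis, CPM per kb) of the 10 genes in each Y-Scr and Y-KO library (points), with lines between group means. Mavs and Tbk1 stay at the top, Ddx58 crosses below Eif2ak2 and Adar, Dhx58 crosses below Tlr3, and Ifih1 and Zbp1 reach 0 counts in Y-KO (triangles, drawn below the axis range of measured values).

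Interferon acts on many genes through the interferon-stimulated response element (ISRE), and promoter sequences were searched for it. Sequences are shown for genes lower or absent in Y-KO that held a form of it and, for contrast, for Mavs. Tlr3 and Ikbke also fell but held no match, and their windows are not shown. Whether the element had a part in any change was not tested. RefSeq windows of GRCm38.p6, from 250 bases before to 50 bases after a start site, were at hand for 8 of the 10 genes, in 10 windows. Dhx58 and Zbp1 had none. The core searched for, on both strands, was GAAA, any 2 bases, and GAAA again. It was found in Ddx58, Ifih1 and Eif2ak2, all lower or absent in Y-KO, and in 3.44% of all 32851 promoter windows. The match is GAAATCGAAA at bases 253 to 262 of the Ddx58 window, on the other strand, GAAACAGAAA at bases 283 to 292 for Ifih1 and GAAAACGAAA at bases 269 to 278 for Eif2ak2. All 3 matches thus lie within the last 50 bases, after the start site. Mavs, Tbk1, Tlr3, Ikbke and Adar had no such match in their windows, and of these 5 genes Tlr3, Ikbke and Adar also fell. The shorter GAAANNGAA, which overlaps the core and stands in 8.56% of all windows, was also found in 1 of the 3 Adar windows, where GAAAAGGAA lies at bases 2 to 10 and GAAAGTGAA at bases 284 to 292. Capitals mark the core in the first 3 sequences (as its reverse complement in Ddx58) and the shorter form in that of Adar, and the Mavs window has neither.
Ddx58, chr4:40239776-40240075, minus strand: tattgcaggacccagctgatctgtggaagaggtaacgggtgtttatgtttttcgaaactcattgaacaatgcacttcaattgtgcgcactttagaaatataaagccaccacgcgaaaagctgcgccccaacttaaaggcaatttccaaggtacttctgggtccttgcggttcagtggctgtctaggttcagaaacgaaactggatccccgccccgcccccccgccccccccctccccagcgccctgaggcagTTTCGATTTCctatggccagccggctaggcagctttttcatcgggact
Ifih1, chr2:62646206-62646505, minus strand: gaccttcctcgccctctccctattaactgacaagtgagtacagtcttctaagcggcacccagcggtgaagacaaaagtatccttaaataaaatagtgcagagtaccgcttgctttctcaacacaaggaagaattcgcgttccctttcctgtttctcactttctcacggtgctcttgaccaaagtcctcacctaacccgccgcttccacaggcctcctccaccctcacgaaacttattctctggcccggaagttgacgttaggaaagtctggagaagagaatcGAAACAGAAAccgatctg
Eif2ak2, chr17:78882523-78882822, minus strand: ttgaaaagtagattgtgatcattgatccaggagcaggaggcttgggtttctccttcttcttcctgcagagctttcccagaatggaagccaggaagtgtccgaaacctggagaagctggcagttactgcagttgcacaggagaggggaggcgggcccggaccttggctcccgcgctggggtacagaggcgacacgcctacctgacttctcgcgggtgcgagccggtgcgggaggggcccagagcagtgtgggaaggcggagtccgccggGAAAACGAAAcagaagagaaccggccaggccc
Adar, chr3:89730468-89730767, plus strand: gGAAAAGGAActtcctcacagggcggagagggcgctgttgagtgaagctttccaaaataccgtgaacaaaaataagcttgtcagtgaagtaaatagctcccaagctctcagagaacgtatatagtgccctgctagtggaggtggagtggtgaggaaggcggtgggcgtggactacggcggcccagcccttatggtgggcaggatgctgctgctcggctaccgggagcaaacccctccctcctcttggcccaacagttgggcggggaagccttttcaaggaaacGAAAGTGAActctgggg
Mavs, chr2:131233813-131234112, plus strand: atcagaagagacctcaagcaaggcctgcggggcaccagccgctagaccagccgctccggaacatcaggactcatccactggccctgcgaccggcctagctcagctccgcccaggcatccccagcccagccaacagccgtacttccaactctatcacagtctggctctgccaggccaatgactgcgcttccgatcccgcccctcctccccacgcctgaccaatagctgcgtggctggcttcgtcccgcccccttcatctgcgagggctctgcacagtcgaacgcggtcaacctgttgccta

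The 10 genes lie on 8 chromosomes, and their neighbours are the 20 nearest tested genes, 1 on each side. Of these, 3 fell, 7 rose and 10 did not pass the threshold, with a median of 0.12, where 43.6% of all tested genes were called. Kat2a, which lies 0.475 kb from Dhx58 and encodes a histone acetyltransferase, rose by 0.78 ± 0.10 (adjusted p = 4.6e-06, edgeR). Nkiras2 on the other side of Dhx58 fell by 0.57 ± 0.08. Ikbke lies between Rassf5, at 0.56 ± 0.14, and Srgap2, at 0.29 ± 0.09, which both rose. Srgap2 lost that call without Y-Scr 2 (0.21), without Y-KO 2 (0.24) and after length and GC trends were removed (0.13). Slc4a10, the neighbour of Ifih1 at a distance of 269.0 kb, fell by 3.81 ± 0.70. It had 21, 22 and 56 reads in Y-Scr and 0, 0 and 6 in Y-KO, and passed the low-count filter through Y-Scr alone. The pseudogene Gm6548, 0.608 kb from Eif2ak2, fell by 0.85 ± 0.13.

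The genes that act on or beside the sensors were taken from 9 lists, with 112 of 127 genes tested. Of these, 32 (28.6%) fell and 27 (24.1%) rose, and the median was 0.02. These shares lie near the 23.0% lower and 20.7% higher of all tested genes.

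Among regulators of RIG-I and MDA5, 9 of 19 tested (47.4%) fell and 4 (21.1%) rose, against 23.0% and 20.7% of all tested genes. Trim25, whose product attaches ubiquitin to activate RIG-I, fell by 0.73 ± 0.07, from 110.0 ± 2.52 to 66.3 ± 2.59 CPM. Riok3 fell by 0.76 ± 0.06 and Trim14, whose product acts beside MAVS, fell by 0.97 ± 0.22. The deubiquitinase genes Usp4 (0.41 ± 0.08), Usp15 (0.30 ± 0.07) and Usp21 (0.36 ± 0.11) rose. Usp21 lost that call without Y-KO 3 (0.26) and after length and GC trends were removed (0.23). Ddx60, an interferon-induced helicase gene named after its values were seen, had 22, 23 and 29 reads in Y-Scr and 0 in each Y-KO library, at least 22.9-fold lower. That bound for Ddx60 was 14.8 without Y-KO 1 and 15.2 without Y-KO 3. Ddx60 is among the 9 that fell, and having passed the low-count filter through its Y-Scr reads alone, it could not be called higher.

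Among partners of MAVS, 4 of 21 tested (19.0%) fell and 4 rose, shares near those of all tested genes. Ndfip1 (-0.58 ± 0.07) and the signalling genes Traf2 (-0.56 ± 0.06) and Tradd (-0.47 ± 0.09) fell. Pcbp1 (0.39 ± 0.08), the mitochondrial fusion gene Mfn2 (0.38 ± 0.09) and the deubiquitinase gene Otud4 (0.33 ± 0.08) rose. Traf3, which encodes a ubiquitin ligase between MAVS and TBK1, had only 17 counts over all 6 libraries and was not tested.

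Of the 14 scaffolds, subunits and substrates of TBK1 and the IKK complex, 4 (28.6%) fell and 2 (14.3%) rose, also near the shares of all tested genes. Irf7 fell by 5.33 ± 0.19, from 406, 404 and 744 reads in Y-Scr to 13, 9 and 13 in Y-KO. Irf3, the constitutive substrate, stood at -0.13 ± 0.09 (adjusted p = 0.249, edgeR). Tank, whose product is a scaffold for both kinases, fell by 1.29 ± 0.08, from 119.0 ± 11.5 to 48.4 ± 2.31 CPM, and Optn, an autophagy receptor gene, fell by 0.56 ± 0.09. The scaffold gene Tbkbp1 stood at 0.08 ± 0.08. Ptpn11 (0.24 ± 0.07) and Dtx4 (0.21 ± 0.07) rose. Dtx4 was no longer called when Y-Scr 2 or any 1 of the Y-KO libraries was left out (0.19 to 0.22), with no low-count filter (0.20), under the replicate block (0.21) and after length and GC trends were removed (0.15).

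In the TLR3 branch, 1 of 10 tested genes fell and 2 rose. The adaptor gene of TLR3, Ticam1, stood at -0.06 ± 0.14. Cd14 fell by 0.56 ± 0.08, and Cnpy3, which encodes a chaperone of Toll-like receptors, rose by 0.49 ± 0.10. Ripk1, shared with the death branch of ZBP1, rose by 0.27 ± 0.09, a call lost when Y-Scr 2 (0.23), Y-Scr 3 (0.22), Y-KO 1 (0.26) or Y-KO 3 (0.27) was left out. In that death branch 3 of 6 tested genes fell: Fadd (-0.40 ± 0.11), Cflar (-0.36 ± 0.07) and Casp8 (-0.30 ± 0.08), with Ripk1 the 1 that rose. Casp8 lost its call after length and GC trends were removed (-0.08). Ripk3, the partner kinase gene of Zbp1, had 4 counts over all 6 libraries.

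Around PKR, 3 of 9 tested genes (33.3%) fell and 2 (22.2%) rose, against 23.0% and 20.7% of all tested genes. Ppp1r15a fell by 1.51 ± 0.08, from 170.0 ± 16.5 to 59.9 ± 4.59 CPM, Ddit3 fell by 1.21 ± 0.07 and Atf4 fell by 0.43 ± 0.06. The PKR inhibitor gene Dnajc3 (0.37 ± 0.07) and the heme-regulated kinase gene Eif2ak1 (0.28 ± 0.08) rose. Ppp1r15a encodes an inducible subunit of the eIF2alpha phosphatase, and the gene for the constitutive subunit, Ppp1r15b, stood at 0.01 ± 0.06. The other kinase genes Eif2ak3 (0.05 ± 0.11) and Eif2ak4 (0.24 ± 0.12) did not pass.

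Other genes for double-stranded RNA binding and editing proteins were more often higher than lower, with a median of 0.20. Of 19 tested, 10 (52.6%) rose and 1 (5.26%) fell, where 20.7% of all tested genes rose and 23.0% fell. Stau2 rose by 1.44 ± 0.27, from 1.96 ± 0.789 to 5.42 ± 0.638 CPM. The RNA helicase genes Dhx9 (0.65 ± 0.07) and Dhx33 (0.57 ± 0.13) rose too. Zfr, the 1 that fell (-0.20 ± 0.07), lost its call under the replicate block, after length and GC trends were removed (-0.11) and when Y-Scr 1, Y-Scr 2 or any 1 of the Y-KO libraries was left out (-0.21 to -0.14). The second editing enzyme gene, Adarb1, named after its values were seen, rose by 0.42 ± 0.11, against the fall of Adar.

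Among other nucleic acid sensors and their relatives, 3 of 7 tested (42.9%) fell and 1 (14.3%) rose, against 23.0% and 20.7% of all tested genes. Rnaseh2a fell by 0.40 ± 0.07. Tmem173, which encodes STING, fell by 0.28 ± 0.07, and stood at -0.10 after length and GC trends were removed, where the call was lost. Zc3hav1 (-0.18 ± 0.07) lost its call when Y-Scr 1 (-0.13), Y-KO 1 (-0.14) or Y-KO 3 (-0.20) was left out, under the replicate block (-0.18) and in DESeq2 (-0.18). Skiv2l (0.26 ± 0.10) lost its call when Y-Scr 2 (0.18), Y-KO 1 (0.27) or Y-KO 3 (0.16) was left out and after the same trends were removed (0.11). Mb21d1, which encodes the DNA sensor cGAS, had 11 counts over all 6 libraries.

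Interferon beta RNA, the end product of the pathway, was not detected in Y-KO, and the factors of the receptor chain were lower. Ifnb1, named after its values were seen, had 22, 30 and 48 reads in Y-Scr and 0 in each Y-KO library, at least 31.0-fold lower. That bound for Ifnb1 was 20 without Y-KO 1 and 20.5 without Y-KO 3. Of 9 tested genes on the list of interferon products and the receptor chain, 5 (55.6%) fell and 2 (22.2%) rose, with a median of -1.40. Of all tested genes, 23.0% fell and 20.7% rose. Ifnb1 is among the 5, and having passed the low-count filter through its Y-Scr reads alone, it could not be called higher. Irf9 (-3.08 ± 0.10) and Stat2 (-1.43 ± 0.11), whose products act together downstream of the receptor, fell. The receptor gene Ifnar1 stood at 0.12 ± 0.08 and Ifnar2 at -0.26 ± 0.11 (adjusted p = 0.0529, edgeR). The kinase genes Jak1 (0.27 ± 0.07) and Tyk2 (0.33 ± 0.09) rose, and Tyk2 lost that call after length and GC trends were removed (0.11).

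**Figure D4:**
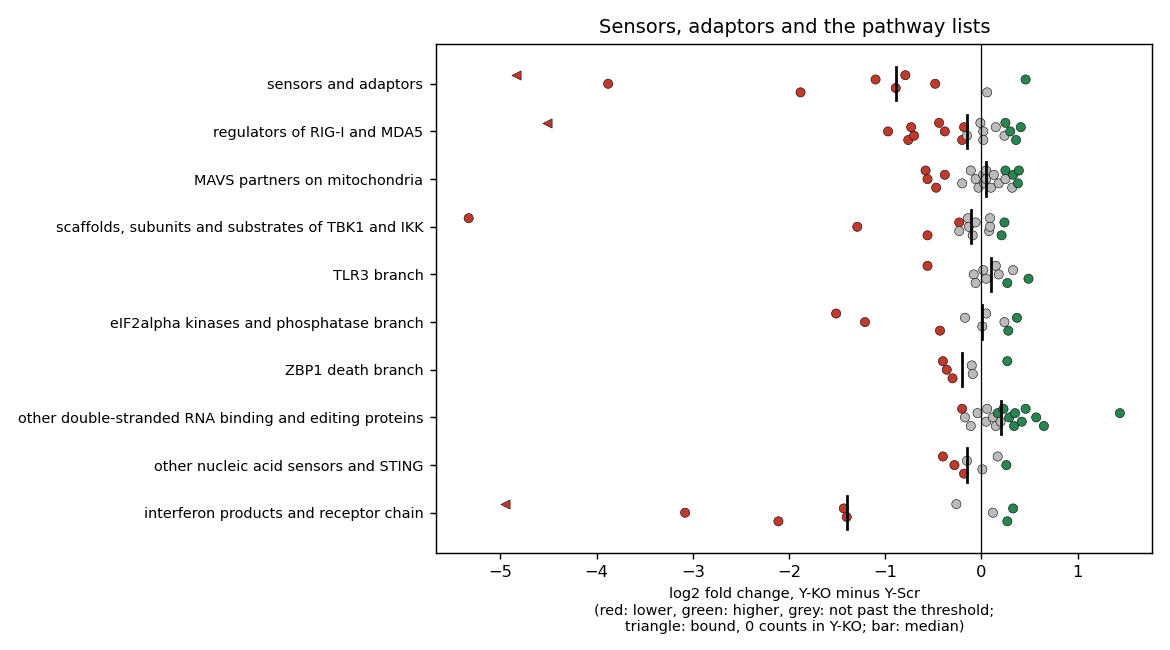
Log2 fold change (horizontal axis, Y-KO minus Y-Scr) of each tested gene of the sensor and adaptor set and of the 9 pathway lists, with the median of each list as a bar; red genes fell, green genes rose and grey genes did not pass, and triangles mark genes with 0 counts in Y-KO at their bound. The median is -0.89 for the sensors and adaptors, 0.05 for partners of MAVS and -1.40 for the interferon products and receptor chain.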

How the data were processed

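The members and gene lists were chosen with earlier results of these data known. The authors deposited whole-number read counts per gene, with gene lengths, in 1 table. Per the submitters' processing notes, the tools included Trimmomatic 0.39, STAR 2.5.2b and featureCounts 1.5.3, with GRCm39 and mm39 as builds. Of 54495 genes shared with a GRCm38 annotation (GENCODE M21), 98.3% had the same coordinates, so positions are given as GRCm38.

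Counts were tested with edgeR 4.0.16 in R 4.3.3 (TMM, filterByExpr, robust quasi-likelihood, group as the only term, Benjamini-Hochberg adjustment over 12907 genes, threshold 0.05). The other settings were other scalings, DESeq2 1.42.0, limma-voom (limma 3.58.1), other filters, a replicate block, each library left out, and trends on length and GC content removed (splines with 4 degrees of freedom). The edgeR fit was checked on simulated counts. For a gene at 0 in Y-KO, the floor was 3 counts over the group of 3 libraries, and bounds cover counting error in Y-KO only. The Y-Scr totals enter as exact. Zbp1, Dhx58, Ddx60, Ifnb1 and the neighbour Slc4a10 passed the low-count filter through their Y-Scr reads alone. Replicates were distinct libraries, with chi-square over degrees of freedom of 3.55 to 16.0 for pairs. Named genes were the 10 members, up to 3 lower and 3 higher genes per list with the largest change and at least 5 CPM in a group, and neighbours. Other named genes (those that did not pass, Ddx60, Ifnb1, Adarb1 and genes near 0) were chosen after their values were seen. March5, stored as a date in the table, was matched by its gene ID. Values of a few listed genes, and a second motif search, are not reported here.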

Additional observations from a re-analysis of the deposited data

How the results depend on the processing

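The 7 falls and the rise of Mavs held in every fit that tested the gene: of 125 values of the 9 tested members over 14 alternatives, 124 kept their direction and call. The exception was Tbk1 after removal of length and GC trends, so that 2 members were higher there. Members lower numbered 8 with no low-count filter, which adds Ifih1, and 6 with at least 1 CPM in 3 libraries, which drops Zbp1. Without single libraries the count was 7 throughout. The pathway genes gave 28 to 35 lower and 21 to 34 higher without single libraries. Replicate numbers did not pair the samples (correlations of same-numbered deviations -0.064, -0.034 and -0.024). With the replicate block 7 members fell and 1 rose, and 29 pathway genes fell and 24 rose. Neighbours that did not pass and changed sign were Pmvk, at -0.05 without Y-Scr 1, -0.04 without Y-KO 1 and up to 0.17 without Y-Scr 3, and Xpot, at 0.03 without Y-Scr 2 and 0.02 with the trend removed. The cause was not tested. Sums, shares and ratios kept their direction when gene length was left out, and the looser ISRE form was found in 4 members in place of 3. Leaving out libraries for the bounds of genes at 0 in Y-KO was chosen after seeing the data. Depth limits Ifih1, Zbp1 and, in Y-KO, Dhx58.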

Other observations

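Products of Y genes at 0 in Y-KO touch the sensing pathway at 2 points, described here after the data were seen. Whether these genes bear on any sensor change was not tested. DDX3, encoded by Ddx3x and Ddx3y, is a helicase that binds IKKε and acts beside MAVS. Ddx3x went from 240.0 ± 24.2 CPM (SD, n = 3) in Y-Scr to 377.0 ± 16.8 CPM in Y-KO, and Ddx3y from 155.0 ± 22.4 to 0 CPM. The summed level of the pair was 438.0, 394.0 and 353.0 CPM in Y-Scr and 366.0, 396.0 and 368.0 CPM in Y-KO, so the groups overlapped (exact two-sided permutation p = 0.70, n = 3 in each group). Per length the sums were 75.3 ± 8.03 and 71.4 ± 3.18 CPM per kb (SD). The translation factor subunit encoded by Eif2s3x and Eif2s3y belongs to eIF2, whose alpha subunit PKR phosphorylates. Eif2s3x went from 180.0 ± 18.4 CPM in Y-Scr to 212.0 ± 9.6 CPM in Y-KO, and Eif2s3y from 129.0 ± 2.36 to 0 CPM. That pair summed to 308.0 ± 18.8 CPM in Y-Scr and 212.0 ± 9.60 CPM in Y-KO, with no overlap (exact two-sided permutation p = 0.10, the smallest possible).

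Several pathway genes were listed at or near 0 in all 6 libraries. Trex1 and Zcchc3 had 0 counts, Unc93b1, whose product carries Toll-like receptors to endosomes, had 8, and Mb21d1 had 11. Trex1 overlaps Atrip, a gene with 2041 counts over the 6 libraries. Zcchc3 and Unc93b1 overlap no other gene of the table.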
